A study of Mus musculus with 8 samples.

Results

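The 10 genes described here encode the 4 Notch receptors (Notch1, Notch2, Notch3 and Notch4), the ligands Dll1, Dll4, Jag1 and Jag2, and the target genes Hey1 and Hey2. They were found on the arrays by gene name, 10 of 34844 names, with every probe of each gene kept, which gave 13 of the 55681 non-control probes. Notch1, Notch2 and Dll1 had 2 probes each and the other genes had 1. All 13 probes were well above background on enough arrays to be tested, among 48099 tested probes.

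RNA was measured on one-colour microarrays, 1 array per embryo, in 4 mouse embryos homozygous for a mutation of the Gata2 +9.5 site (Gata2+9.5-/-) and 4 wild type littermates. All were at stage E12.5 on a C57Bl/6J background, were bred from heterozygous parents and came from 2 litters, each with 2 embryos of each genotype. The +9.5 site is an intronic enhancer of Gata2, a transcription factor needed to form blood stem cells. Cells carrying CD31, the adhesion protein PECAM-1, which marks endothelium and is also found on platelets and many white blood cells, were collected on magnetic beads from the embryo without fetal liver and brain. The mutation is present in all cells of the embryo, and the bead fraction is not a pure cell type. Samples 1 and 2 of each genotype belong to litter 1 and samples 3 and 4 to litter 2. The arrays of a litter also shared a slide and a scan day, so litter, slide and scan cannot be told apart.

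Notch receptors are single-pass proteins that are cut when a ligand on a neighbouring cell binds them. The freed intracellular part enters the nucleus, joins the DNA-binding protein RBPJ and switches on Hes and Hey genes. In embryonic vessels this signal sets arterial identity and limits sprouting, and Notch1 signalling in the aortic endothelium is needed for the first blood stem cells.

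A probe is a 60-base DNA strand that captures 1 stretch of a transcript, and the probes differ in where they lie. The 2 sequences below are shown because Notch1 and Notch2 were each read at 2 places in the gene, and the 2 readings can be set side by side for direction. Both probes shown lie within the coding sequence. The Notch1 probe shown is the brighter of its 2 probes, and the Notch2 probe shown is the dimmer. The Notch1 probe lies on chromosome 2, minus strand, chr2:26319440-26319499, and the Notch2 probe on chromosome 3, plus strand, chr3:97951233-97951292 (mm9, per the file annotation), with a GC content of 55.0% each. They are written 5′ to 3′ in lower case, with nothing marked.
Notch1 A_55_P2171897: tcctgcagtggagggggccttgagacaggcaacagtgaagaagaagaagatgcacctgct
Notch2 A_55_P1982793: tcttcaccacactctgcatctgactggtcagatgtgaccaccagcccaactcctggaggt

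For Hey1, Jag1 and Notch4, whose levels moved most closely with the endothelial markers, the first 30 bases of the probe identify the stretch that was read. The Hey1 probe lies at chr3:8663432-8663491 (minus strand), the Jag1 probe at chr2:136907433-136907492 (minus strand) and the Notch4 probe at chr17:34725120-34725179 (plus strand), all mm9.
Hey1 A_51_P258409: gatttgggctctaaaagtattgttttacag
Jag1 A_52_P634090: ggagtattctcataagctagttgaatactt
Notch4 A_51_P195875: gttgatttcgagaatccctaaactctggaa

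The promoter windows in RefSeq (GRCm38.p6), which run from 250 bases before to 50 bases after a gene's start, were searched for the core of the RBPJ motif, TGGGAA, on both strands (TTCCCA on the other). Of the 9 genes with a window, only Hey2 held it, with 2 matches that begin 207 and 3 bases before the start, and 25.6% of all 32851 windows held at least 1. Hey2 lies on chromosome 10, minus strand, and 60 bases around its first match, chr10:30842958-30843017, are printed with the match in capitals.
Hey2 promoter: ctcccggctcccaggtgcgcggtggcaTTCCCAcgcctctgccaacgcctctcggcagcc

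Values below are log2 of the processed intensity minus the 75th percentile of the array, so 0 means as bright as that percentile. A probe's brightness depends on its sequence, and levels are compared between arrays, not between genes. Genotype was tested with limma across all 48099 probes, with Benjamini-Hochberg adjustment and a threshold of 0.05. Where a level is lower in such a bulk sample, fewer cells of a type and less RNA per cell cannot be told apart.

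The sample labels were checked on Gata2 itself. Its probe gave -1.24, -0.15, -1.27 and -1.07 in the mutants, against 2.00, 1.66, 0.89 and 1.42 in the wild types. Gata2 was lower in every mutant than in any wild type, with a difference of -2.42 ± 0.38 log2 units (SE) and an adjusted p of 0.0947 in limma. Over all probes, 16 were called lower (0.0333%) and 0 higher (0%) in the mutants, and 1430 (2.97%) had an unadjusted p under 0.05. With litter as a block, 0 probes were called, and with any 1 array left out 0 to 29 were, 0 of them without wild type 1, 2, 3 or 4 or without mutant 1 or 3 and 29 without mutant 4. Between 74.9% and 92.0% of spots were well above background on each array. On the first principal component, which held 58.4% of the variance, wild type 3, mutant 4 and wild type 2 scored highest, at 169, 133 and 105. Wild type 4 followed at 26.5, and the remaining arrays ran from -60.9 to -138. The endothelial markers Pecam1 (CD31) and Cdh5 (VE-cadherin) were well above background on all 8 arrays. Pecam1 read 3.59, 3.42, 3.15 and 2.59 in mutants and 3.75, 2.78, 2.18 and 3.17 in wild types. The mesenchyme gene Col1a2 and the neural gene Snap25 were also well above background on all 8 arrays, so detection alone did not show the identity of the cells. Platelet markers were lower in mutants for 8 of 8 genes, 3 of them called, with a median of -3.05 log2 units. The median level of these 8 genes ran from -1.23 to 0.16 in mutants and from 1.52 to 2.71 in wild types.

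No Notch receptor, ligand or Hey gene passed the threshold between mutants and wild types. Of the 13 probes 0 were called, against 0.0333% called lower and 0% called higher over all probes, and 0 of 13 had an unadjusted p under 0.05, against 2.97%. The limma adjusted p ran from 0.717 to 0.992 and the unadjusted p from 0.143 to 0.982. In 9 of 13 probes the mutant mean was higher, and the median difference was 0.20 log2 units, beside 0.08 over all probes. The mutant and wild type values overlapped for all 13 probes, where 0.561% of all probes had every mutant above every wild type and 0.516% every mutant below.

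**Figure D1:**
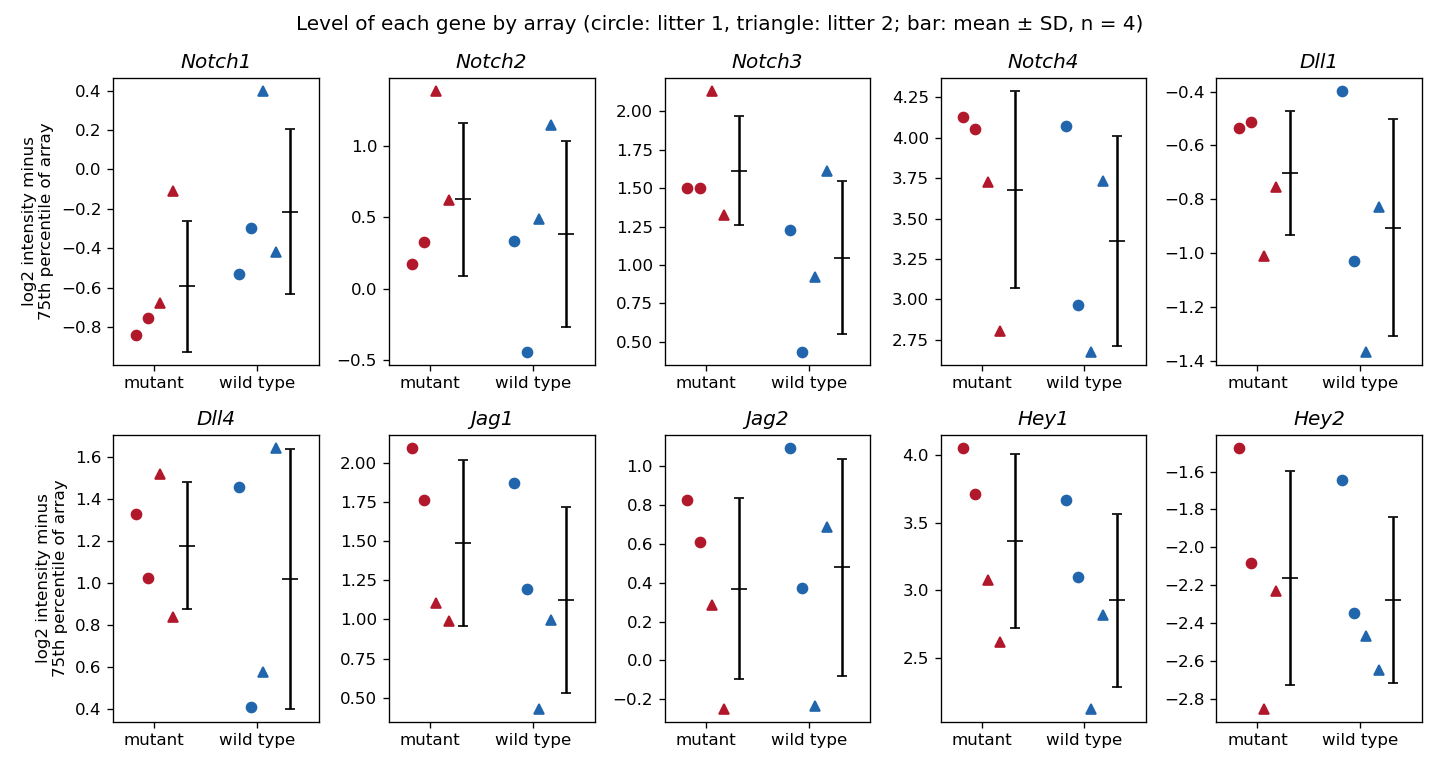
Level of the brightest probe of each gene in the 4 mutant (left, red) and 4 wild type (right, blue) arrays, in log2 intensity minus the array's 75th percentile. Circles are litter 1, triangles litter 2, and bars give the mean ± SD (n = 4). The 2 genotypes overlap in all 10 panels, and the triangles lie below the circles for Jag1 and Hey1 and above them for Notch2.

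Among the receptors, Notch1 is the one required for definitive blood formation. Its coding probe read -0.84, -0.75, -0.68 and -0.11 in mutants, against -0.53, -0.30, 0.40 and -0.42 in wild types. Mutants 1 to 3 were below all 4 wild types and mutant 4 was above all but 1 of them. Wild type 3, mutant 4 and wild type 2, the arrays with the highest scores on the first component, were also the highest for this probe. The difference was -0.38 ± 0.34 log2 units (SE), with a 95% interval from -1.13 to 0.37 and a limma adjusted p of 0.717. It was equal in the litters, at -0.38 in litter 2 and -0.38 in litter 1, and it was -0.18 without wild type 3. The second probe, nearer the gene's 3′ end, read -2.61, -2.38, -2.67 and -1.94 in mutants and -2.61, -2.43, -2.26 and -2.28 in wild types, a difference of -0.01 ± 0.31 (SE). The 2 Notch1 probes thus gave a lower mean in mutants and no visible shift, both within the spread of the arrays.

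Notch2, a receptor expressed in many tissues, read 0.17, 0.33, 1.38 and 0.62 in mutants, against 0.33, -0.44, 0.49 and 1.14 in wild types. The difference of 0.25 ± 0.42 log2 units (SE) had a 95% interval from -0.68 to 1.17. The coding probe of Notch2 was dim. It was well above background on 3 mutant and 2 wild type arrays, and read -4.90, -3.46, -3.51 and -3.36 in mutants and -4.57, -4.78, -4.31 and -3.98 in wild types. Mutant 1 was the lowest of all 8 arrays there and the other 3 mutants were above all wild types, for a difference of 0.60 ± 0.41 (SE) and a limma adjusted p of 0.717.

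Notch3 is best known from the smooth muscle cells and pericytes that wrap vessels. It read 1.50, 1.50, 2.13 and 1.33 in mutants, against 1.23, 0.44, 0.92 and 1.61 in wild types. Of the 13 probes it had the lowest unadjusted p, 0.143, for a difference of 0.57 ± 0.36 log2 units (SE), a mutant over wild type fold of 1.48 with a 95% interval from 0.856 to 2.56. Mutant values lay above 3 of the 4 wild types, and wild type 4 was above 3 of the 4 mutants. The 10 mural cell markers on the array had a median difference of -0.05 log2 units, 4 of 10 higher in mutants and 0 called. With median scaling 9 of 10 were higher with a median of 0.21, where the median of all probes was 0.34. After quantile normalization 5 of 10 were higher with a median of -0.003. Scaled on pan-endothelial markers, 2 of 10 were higher with a median of -0.34, where that of all probes was -0.20.

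Notch4, a receptor largely restricted to endothelium, read 4.12, 4.05, 3.73 and 2.80 in mutants, against 4.07, 2.96, 2.68 and 3.73 in wild types. The 3 lowest arrays were wild type 3, mutant 4 and wild type 2, those with the highest scores on the first component. The difference was 0.32 ± 0.43 log2 units (SE), with a 95% interval from -0.64 to 1.27. It was 0.06 in litter 2 and 0.57 in litter 1.

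Of the Delta-type ligands, Dll4 is the one made by arterial and sprouting endothelium. It read 1.33, 1.02, 1.52 and 0.84 in mutants, against 1.46, 0.41, 0.57 and 1.64 in wild types. The lowest and the highest array were both wild types, 2 and 4, and the mutants lay between them. As for Notch4, wild type 2, wild type 3 and mutant 4 were the lowest arrays, with a mean of 0.61 against 1.39 on the others. The mean difference was 0.16 ± 0.38 log2 units (SE), with a 95% interval from -0.68 to 0.99 and a limma adjusted p of 0.838.

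Dll1, a ligand of somites and neural progenitors that arterial endothelium also makes, was read by a probe spotted 10 times per array. That probe gave -0.54, -0.51, -1.01 and -0.75 in mutants, against -0.40, -1.03, -1.37 and -0.83 in wild types, a difference of 0.20 ± 0.33 log2 units (SE). Wild type arrays held both the highest and the lowest value. A second Dll1 probe, annotated to another transcript, read -3.28, -3.51, -3.55 and -1.71 in mutants and -2.84, -1.76, -2.25 and -3.01 in wild types. Its difference of -0.55 ± 0.48 (SE) ran opposite to that of the first probe, and it was 0.00 in litter 2 and -1.10 in litter 1.

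Jag1, a ligand made by endothelium and smooth muscle and needed for embryonic vessel remodelling, read 2.09, 1.76, 1.10 and 0.99 in mutants, against 1.87, 1.20, 0.43 and 1.00 in wild types. The genotypes interleaved within each litter. The difference was 0.36 ± 0.41 log2 units (SE), with a 95% interval from -0.53 to 1.26. Jag2, a related ligand, read 0.83, 0.61, 0.29 and -0.25 in mutants and 1.09, 0.37, -0.23 and 0.69 in wild types. Its mean difference was -0.11 ± 0.39 log2 units (SE), with a 95% interval from -0.97 to 0.74.

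Hey1 and Hey2 encode repressors of the basic helix-loop-helix class that together carry much of the Notch signal in embryonic vessels. Hey1 read 4.05, 3.71, 3.08 and 2.62 in mutants, against 3.66, 3.1, 2.12 and 2.82 in wild types. Litter 1 mutants were above both litter 1 wild types, and in litter 2 wild type 4 lay between the mutants. The difference was 0.44 ± 0.44 log2 units (SE), a mutant over wild type fold of 1.35 with a 95% interval from 0.694 to 2.64. Hey2 was a dim probe that read -1.48, -2.09, -2.85 and -2.23 in mutants and -1.65, -2.35, -2.47 and -2.65 in wild types. Its difference was 0.12 ± 0.38 (SE), with a 95% interval from -0.73 to 0.96.

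**Figure D2:**
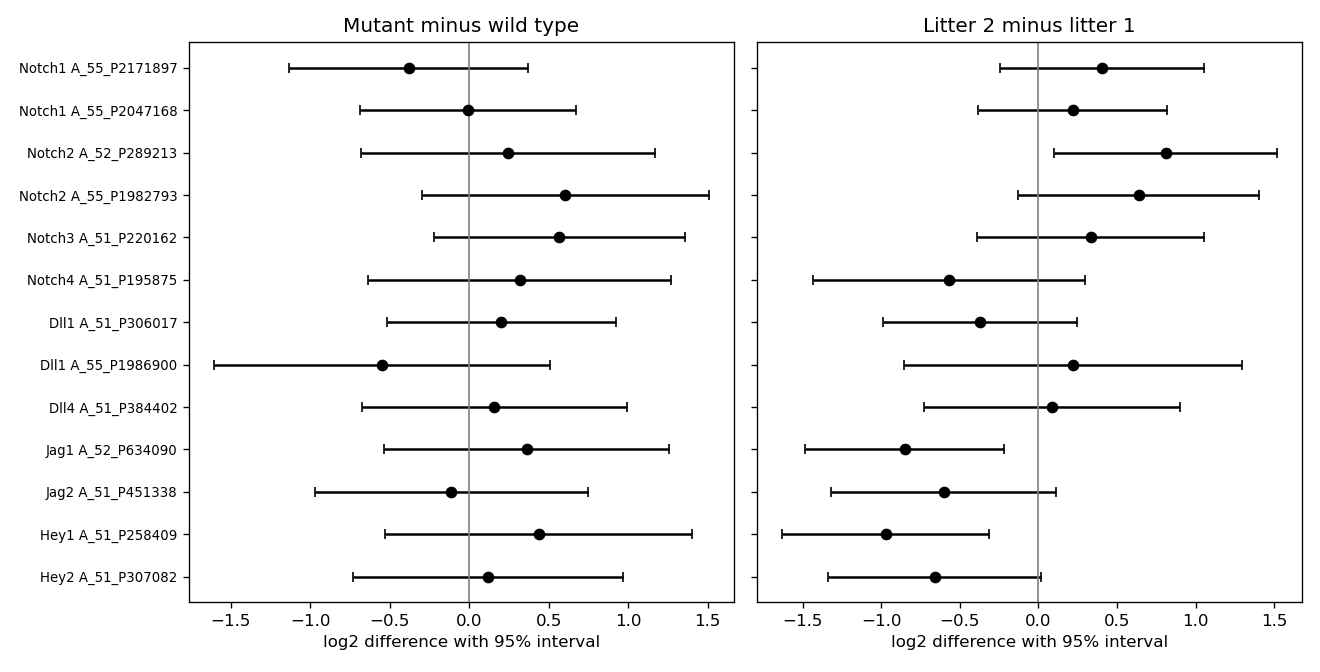
Difference of each of the 13 probes on the log2 scale with its 95% interval, for mutant minus wild type (left panel) and litter 2 minus litter 1 (right panel). Every interval in the left panel holds 0, and in the right panel those of Notch2 (its brighter probe), Jag1 and Hey1 do not.

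The genotype differences were small beside the width of their intervals. These intervals came from the fit without litter, so their width includes the spread between litters. With litter as a block, 0 Notch probes were called. The unadjusted limma p of the brighter probe was then 0.217 for Notch1, against 0.288, and 0.455 for Notch2, against 0.571. For the brightest probes, the upper bound of the mutant over wild type fold ran from 1.29 for Notch1 to 2.64 for Hey1 and the lower bound from 0.457 for Notch1 to 0.856 for Notch3. The effect of genotype did not differ detectably between litters. The limma interaction term gave 0 called of 13 probes, against 0% over all probes, and 0 of 13 with an unadjusted p under 0.05, where 599 of 48099 probes had one.

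The litters differed more than the genotypes did. With genotype in the model, 2488 probes (5.17%) were called between litter 2 and litter 1 and 12725 (26.5%) had an unadjusted p under 0.05. Between genotypes, with litter as a block, 0 were called and 2338 had an unadjusted limma p under 0.05. Of the 13 Notch probes 0 were called between litters and 3 had an unadjusted p under 0.05, a share close to the 26.5% of all probes. Hey1 was lower in litter 2 than in litter 1 on every array, with 3.08, 2.62, 2.12 and 2.82 in litter 2 and 4.05, 3.71, 3.66 and 3.1 in litter 1. The difference was -0.97 ± 0.29 log2 units (SE), with a limma adjusted p of 0.0847. Jag1 was lower in litter 2 by the same pattern, by 0.85 ± 0.28 log2 units (SE), with a limma adjusted p of 0.106. The brighter Notch2 probe was higher on every litter 2 array, by 0.81 ± 0.31 log2 units (SE), with a limma adjusted p of 0.149. With wild type 2 left out, Hey1 and Jag1 were called lower in litter 2, by 1.10 and 0.99 log2 units (limma adjusted p of 0.0469 and 0.0491), against 13.1% of all probes called. Leaving out wild type 2, wild type 3 and mutant 4, the arrays with the highest first component scores, kept only mutant 3 and wild type 4 in litter 2. Then 5 of the 12 probes still tested were called, against 25.5%, with Notch2 higher and Hey1, Hey2, Jag1 and Dll1 lower in litter 2. Litters did not overlap for 2 of 13 probes lower in litter 2, against 3.67% of all probes, and for 1 of 13 higher, against 10.5%.

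Endothelial markers moved with these litter values. The median of 20 pan-endothelial probes was 5.25, 5.08, 4.50 and 3.93 in mutants, against 5.28, 4.46, 3.44 and 4.46 in wild types, and 20 of 20 of these probes had a lower mean in litter 2, 4 of them called. Its part in the Hey1 and Jag1 differences was not tested. The interquartile range of log2 intensity over all non-control spots also differed between arrays. That range was 4.38, 4.39, 4.00 and 2.91 in mutants, against 4.20, 3.69, 3.42 and 3.56 in wild types, and its part was not tested either. When each array was scaled on the pan-endothelial median in place of its 75th percentile, the litter difference of Hey1 was -0.04 ± 0.16 log2 units (SE). That of Jag1 was 0.08 ± 0.18 (SE). On that scale 4 of 13 Notch probes were called between litters, all higher in litter 2 (both Notch2 probes, Notch3 and Dll4), against 41.1% of all probes, whose median litter difference was 1.23. Notch2 was then 1.74, Notch3 1.26 and Dll4 1.02 log2 units higher in litter 2 (limma adjusted p of 0.0013, 0.0026 and 0.0036).

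**Figure D3:**
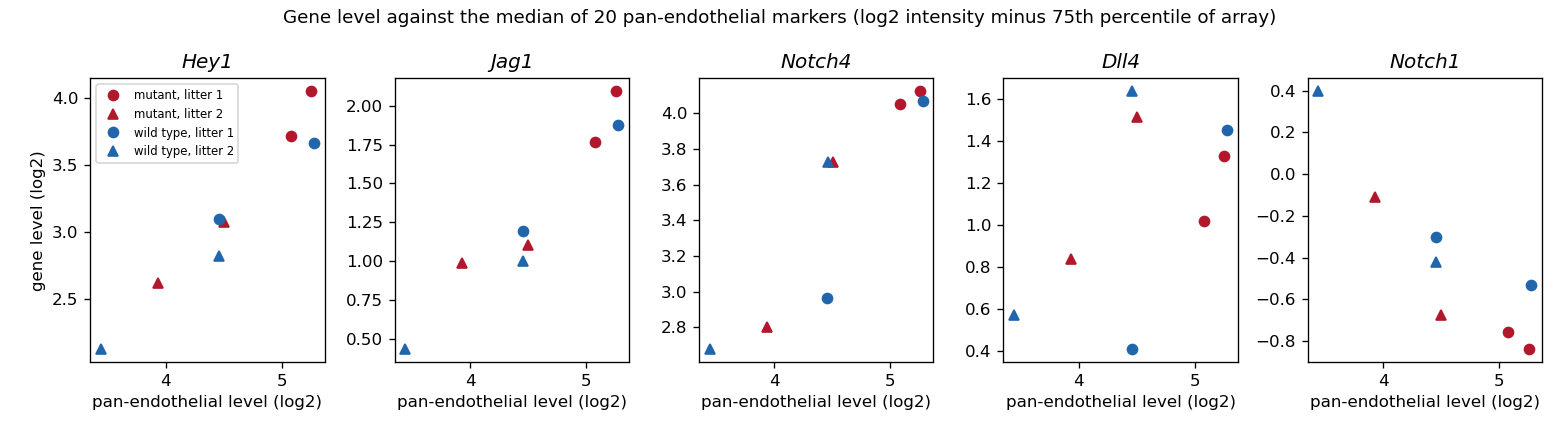
Level of Hey1, Jag1, Notch4, Dll4 and Notch1 on each array (vertical axis) against the median of 20 pan-endothelial markers (horizontal axis), both in log2 intensity minus the array's 75th percentile. Hey1 and Jag1 lie near a rising line over all 8 arrays, Dll4 is scattered and Notch1 falls.

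The same scaling separated the genes by how they varied over the 8 arrays. Hey1 had a range of 0.44 log2 units relative to the pan-endothelial level, against 1.92 relative to the 75th percentile. The range of Jag1 was 0.52 against 1.66, that of Notch4 was 0.76 against 1.45, and that of Jag2 was 0.79 against 1.34. These 4 genes varied less from embryo to embryo around the endothelial markers than around the percentile. Notch1 went the other way, with a range of 3.04 against 1.23, and Notch2 had 2.13 against 1.82. Notch3, Dll1, Dll4 and Hey2 had about the same range on both scales, between 1.10 and 1.68 relative to the endothelial level. The range was smaller on the endothelial scale for 5 of 10 genes, the fifth being Notch3 at 1.68 against 1.69, beside 24.7% of all probes. The share was 9 of 10 for arterial genes and 1 of 10 for mural genes. Among other genes of the pathway it was 14 of 26 for receptor processing and trafficking and 6 of 10 for the nuclear complex. For other Hes and Notch targets it was 3 of 8 and for further ligands 2 of 5. No test was made of these counts.

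**Figure D4:**
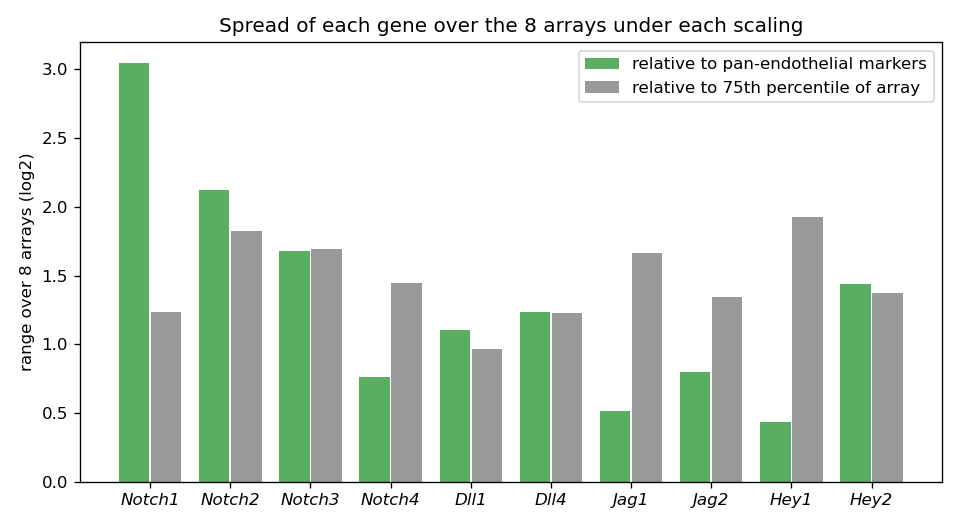
Range of the brightest probe of each gene over the 8 arrays, in log2 units, relative to the pan-endothelial markers (green) and to the array's 75th percentile (grey). The green bar is the shorter one by a wide margin for Notch4, Jag1, Jag2 and Hey1, and the longer one for Notch1 and Notch2.

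On the endothelial scale the genotypes were again not separated. Hey1 averaged -1.33 ± 0.09 in mutants and -1.48 ± 0.17 in wild types (SD, n = 4 each), a difference of 0.15 ± 0.25 log2 units (SE). Jag2 had the largest absolute difference among the 4 genes that tracked the markers, with -4.32 ± 0.15 in mutants and -3.93 ± 0.24 in wild types (SD, n = 4 each), a difference of -0.39 ± 0.27 (SE), and the groups overlapped. All 10 genes had a limma adjusted p of 1.00 there.

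Other genes of the pathway were taken as lists by role. Of the genes for further ligands (5), receptor processing and trafficking (26), the nuclear complex (10) and other Hes and Notch targets (8), 0 were called in either direction. Their means were higher in mutants for 5 of 5, 26 of 26, 9 of 10 and 7 of 8 genes, with medians of 0.45, 0.35, 0.37 and 0.45 log2 units, where 54.0% of all probes were higher. These counts and the size of the medians depended on the scaling, and the medians stayed positive under each scaling run. Relative to the pan-endothelial level the medians were 0.17, 0.06, 0.09 and 0.16, with 4 of 5, 19 of 26, 6 of 10 and 5 of 8 genes higher. With wild type 2, wild type 3 and mutant 4 left out, the median of the further ligands was -0.09, with 1 of 5 higher. The 10 Notch genes themselves had a median of 0.22 over their brightest probes, -0.06 relative to the pan-endothelial level and -0.03 without those 3 arrays.

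The brightest further ligands were Egfl7, a secreted endothelial protein, at 0.14 ± 0.47 log2 units (SE), and Dlk1, a non-canonical ligand, at 0.48 ± 0.44 (SE). In the processing list they were Mfng, a Fringe glycosyltransferase that modifies the receptors, at 0.30 ± 0.42 (SE), and Psenen, a γ-secretase subunit, at 0.33 ± 0.39 (SE). In the nuclear list the corepressor gene Ctbp1 differed by 0.35 ± 0.35 log2 units (SE). The arterial markers, 10 of 10 higher with a median of 0.37 and 0 called (6 of 10 higher with a median of 0.06 after quantile normalization, 8 of 10 with 0.09 relative to the pan-endothelial level), included Epas1, a hypoxia-inducible factor, at 0.39 ± 0.43 (SE) and Gja4, connexin 37, at 0.44 ± 0.46 (SE).

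Hes5, a Notch target best known from neural progenitors, was the gene of these lists whose genotypes did not overlap. It read 1.91, 1.85, 1.55 and 1.38 in mutants, against 1.00, 0.65, 1.07 and 1.06 in wild types. Every mutant was above every wild type, as for 0.561% of all probes, and the difference was 0.73 ± 0.30 log2 units (SE), with an unadjusted p of 0.0341 and a limma adjusted p of 0.717. Hes6, the other bright gene of that list, differed by 0.36 ± 0.33 (SE). The 10 neural markers had a median difference of 0.27, 8 of 10 higher in mutants and 0 called (4 of 10 higher relative to the pan-endothelial level), and their part in the Hes5 value was not tested. Hes1, the classical Hes target of Notch, was called between litters, where 5.17% of all probes were, at -1.57 ± 0.31 log2 units (SE) in litter 2 minus litter 1 (limma adjusted p = 0.0266). Its genotype difference was 0.63 ± 0.58 (SE), and its probe was dim, from -5.15 to -2.57. The 8 genes in the list of other Hes and Notch targets had a median litter difference of -0.06, 3 of 8 higher in litter 2.

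The genes whose profile over the 8 arrays lay closest to those of Notch4, Dll4 and Hey1 were found among 16293 symbols, as the root mean square difference of profiles centred on their own means. For Notch4 they were Gdpd5, Tyw1 and Myo18a, at 0.06, 0.07 and 0.08 log2 units, where the median symbol was at 0.41. For Dll4 they included Pex6 and Sqstm1, at 0.06 and 0.08, with the median symbol at 0.45. For Hey1 they were Mogat2, Hikeshi and Tmem144, at 0.07, 0.08 and 0.08, with the median symbol at 0.48. Within the 10 Notch genes the closest pair was Jag1 and Hey1, at 0.12 log2 units. All arrays share their scaling and their litters, and the likeness is a description of these 8 arrays.

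The authors' deposited table of log2 fold changes, mutant over wild type, listed 11 of the 13 probes and none for Notch1. Of the 11, 10 were above 0 in the authors' deposited table, the lowest p was 0.117, for the dim Notch2 probe, and the median of all 50120 probes was 0.41. In the authors' deposited table Notch3 stood at 0.83, Hey1 at 0.70, Jag1 at 0.63, Notch4 at 0.58 and Dll4 at 0.42.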

How the data were processed

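RNA of bead-enriched CD31+ cells was measured in 8 embryos, 1 array each. Per the file headers, the deposited intensities come from the authors' scans with 1 channel, read by version 10.7.3.1 of Agilent Feature Extraction and annotated on mm9. They are background-subtracted, on a linear scale and not normalized between arrays. The authors' deposited table holds log2 values, log2 fold changes and p-values. Limma is named in the submitters' processing notes. This table served as an alternative.

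Control and outlier-flagged spots were left out, spots of a probe averaged, and log2 intensity minus the array's 75th percentile taken. A probe was tested, with at least 3 values per group, where 4 or more of the 8 arrays had it well above background and each probe was its own feature. The tests were run with limma 3.58.1 in R 4.3.3 (two-sided, Benjamini-Hochberg over all probes, threshold 0.05). Genotype was fitted without covariates. The litter term was fitted beside genotype, and a litter by genotype interaction was fitted separately. The fit was tested on simulated data.

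The labels give the litter of each embryo. Deviations from the group means correlated at -0.15 to 0.74 between same-litter arrays (median 0.26, 8 pairs) and at -0.81 to 0.37 between arrays of different litters (median -0.31, 8 pairs), so litter was also used as a block. The members and lists were chosen with earlier results of these data known. All members were named, with Gata2, the members of other lists past the threshold (at most 4, or else the 2 brightest) and the 3 profiles closest to Notch4, Dll4 and Hey1. Some genes that this rule names are not reported here. Of the 13 member probes, 12 had an accession that RefSeq pairs with the same symbol. Precision is limited by the number of arrays, and p-values measure the spread between embryos of 2 litters.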

Additional observations from a re-analysis of the deposited data

Results flagged for a closer look

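In the dim Notch2 probe (A_55_P1982793) 1 mutant array lay far from the other 3. Mutant 1 read -4.90, against -3.46, -3.51 and -3.36 in mutants 2 to 4, so that its gap to the nearest array was 0.908 of the range of the group. The second Dll1 probe (A_55_P1986900) read -1.71 in mutant 4, against -3.28, -3.51 and -3.55 in mutants 1 to 3, a gap of 0.856 of the range. Wild type 2 and wild type 3 were the next highest arrays for that probe, at -1.76 and -2.25. Both gaps pass Dixon's 95% limit for 4 values. In all, 26 groups of 4 were examined, and chance alone passes about 1 in 20. The cause was not tested.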

How the results depend on the processing

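The count of Notch probes called between genotypes was 0 under all 21 other settings run, and the litter by genotype interaction also gave 0 calls in each setting it was run in. Between litters the count was 4 on the pan-endothelial scale, against 41.1% of all probes. It was 0 to 2 with 1 array left out (2 without wild type 2, against 13.1%). Without wild type 2, wild type 3 and mutant 4 it was 5, against 25.5%. With array weights it was 4, and the share of all probes called between litters was not counted there. Between genotypes, 21664 of 48099 probes had an unadjusted limma p under 0.05 with array weights, against 1430 without. Over all probes, 16 were called between genotypes. That count was 1 after quantile normalization, 42 and 5 after normexp with the 75th percentile or quantiles, 0 on the pan-endothelial scale, 54 from the authors' deposited values, 8 with no filter, 29 among probes well above background on all 8 arrays, 5 with array weights, 0 to 29 with 1 array left out and 2 without those 3 arrays. It was 0 with litter as a block and 0 with the replicate number as a block, and these blocks changed no call of a Notch probe. The labels do not give embryos of equal replicate number as pairs. The median genotype difference of all probes was 0.08, and 0.34 with median scaling, 0.43 in the authors' deposited values, -0.20 on the pan-endothelial scale and -0.13 with array weights. With median scaling 65.6% of all probes were higher in mutants and on the pan-endothelial scale 34.7%, against 54.0%.

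Genotype differences that changed sign did so as follows, and the cause was not tested. On the pan-endothelial scale Notch2 was -0.038, Dll1 -0.080, Dll4 -0.13, Hey2 -0.17 and Egfl7 -0.15. After quantile normalization Notch4 was -0.062, Egfl7 -0.25, Mfng -0.092, Psenen -0.073, Ctbp1 -0.063 and Epas1 -0.023, and with normexp before it Notch4 was -0.051, Egfl7 -0.23, Mfng -0.14, Psenen -0.067, Ctbp1 -0.044 and Epas1 -0.018. Jag2 was 0.15 with median scaling and in the authors' deposited values, and 0.23 with array weights. With 1 array left out, Notch2 ran from -0.029 (without wild type 2) to 0.50, Dll4 from -0.046 (without wild type 2) to 0.36, Jag2 from -0.35 to 0.094 (without mutant 4), Hey2 from -0.11 (without mutant 1) to 0.35 and Egfl7 from -0.19 (without wild type 3) to 0.44. Without wild type 2, wild type 3 and mutant 4, Notch2 was -0.11, Dll1 -0.072, Dll4 -0.26, Egfl7 -0.016 and Dlk1 -0.14.

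Litter differences (litter 2 minus litter 1), run under other settings that were chosen after seeing the data, changed sign on the pan-endothelial scale for Notch4 (0.36), Dll1 (0.56), Jag1 (0.081), Jag2 (0.33) and Hey2 (0.27). With median scaling Notch1 was -0.065, Notch3 -0.14 and Dll4 -0.38, and in the authors' deposited values Notch3 was -0.14 and Dll4 -0.38. With normexp Dll4 was -0.011 at the 75th percentile and Notch4 0.042 after quantiles. With 1 array left out Dll4 ran from -0.14 (without wild type 4) to 0.28. All genotype differences of the 10 genes kept an adjusted p above the threshold under the settings run.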
